A study of Homo sapiens with 12 samples.

Results

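The MYC, MAX and MXD network is a set of transcription factors that share the basic helix-loop-helix leucine zipper fold, and 10 of its genes were followed: MYC, MYCN, MAX, MXD1, MXD3, MXD4, MXI1, MNT, MLX and MGA. They were chosen by name, and their estimated counts were summed over all transcripts of each gene. All 10 were among the 35579 genes that the summed transcripts gave, and 9 passed the filter on low counts that left 15098 genes for testing. MYCN was the exception.

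The cells were WM-266-4, a human melanoma line, and carried a stable lentiviral knock-down of TYRO3 in every group. They were transfected with a pEZY-myc-his plasmid that held GFP (the control, by the sample labels), wild-type TYRO3 (WT), the gamma-secretase-resistant mutant I449A (ΔGS) or the ADAM-resistant mutant P408A/L409P/G419P (ΔADAM), and were serum starved overnight. The study's methods call the control a vector control. A figure legend that covers its functional assays and its heatmaps of transcripts, proteins and phosphorylated residues calls it an empty plasmid. The labels were followed here. TYRO3 is a receptor tyrosine kinase, ADAM proteases shed its extracellular part, and gamma-secretase then releases the intracellular domain, so the mutants ask whether that cleavage matters. Each of the 3 experiments held 1 library of every group, which gives 12 libraries of poly(A) RNA in 4 groups of 3. The plasmid carries the coding sequence of a Myc epitope tag in every group, and its part in the MYC counts was not tested.

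MYC binds DNA as a heterodimer with MAX at the E-box CACGTG and activates genes of ribosome production, metabolism and the cell cycle. The MXD proteins (MXD1, MXI1, MXD3 and MXD4) and MNT compete for MAX and bring the SIN3-HDAC corepressor to the same sites, and MGA joins MAX in the PRC1.6 repressor complex. MLX is a MAX-like partner of MLXIP (MondoA), MLXIPL and some MXD proteins, and with MLXIP it activates glucose-responsive genes such as TXNIP. In melanocytic cells MYC is known for its part in proliferation and in escape from senescence.

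The E-box itself stands in the promoter window of 3 of the network's genes, and these stretches are shown because they are the sites to which the network's own dimers could bind. The windows came from RefSeq (GRCh38.p14) and ran from 250 bases before to 50 bases after each annotated start. The table held 14 windows for 9 of the 10 genes and none for MYC, whose promoter was therefore not searched. Only the letters CACGTG were searched, which read the same on both strands. They stood in 3 of these 14 windows, beside 7.26% of all 35116 windows. Capitals mark the E-box, with 12 bases on each side.
MXD4 (chr4:2262330-2262359, minus strand): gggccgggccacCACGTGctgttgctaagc
MNT (chr17:2401236-2401265, minus strand): ccctgcccgggcCACGTGtgcgcgcgccgg
MLX (chr17:42567038-42567067, plus strand): gcgggcgcgggtCACGTGggcacgccaccc
The E-box began 238 bases before the start in MXD4, 193 in MNT and 50 in MLX. A match of letters is a description and does not show binding.

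The libraries held 4008293 to 38184838 estimated counts. The lowest total was that of the control library of experiment 1, and the next lowest was 18365999. The ΔGS library of experiment 3 also stood apart, since 15.04% of its counts fell on transcripts longer than 5000 bases, against 19.6% to 21.6% in the other 11 libraries. Melanocyte markers were present in every library, with a summed level of 1316 to 2783 CPM over 8 genes. CPM is counts per 1000000 counts, with the total of each library scaled by the TMM method. The summed level of 4 leukocyte markers was 0.387 to 1.31 CPM, and that of 3 endothelial markers 0.787 to 2.42 CPM. KRT10 was the only keratinocyte marker of 4 above 1 CPM, and 5 fibroblast markers summed to 53.1 to 98.2 CPM. The melanocyte sum was 2292 to 2783 CPM in the control libraries and 1316 to 2550 CPM in the 9 TYRO3 libraries, and its part in the results was not tested.

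The transfected gene checked the labels of GFP against TYRO3. TYRO3 stood at 53.1, 47.3 and 56.6 CPM in the control libraries of experiments 1, 2 and 3. It stood at 3064, 1791 and 1369 CPM in the WT libraries, at 3694, 1436 and 1648 CPM in the ΔGS libraries and at 3284, 1215 and 1181 CPM in the ΔADAM libraries. All 9 TYRO3 libraries lay far above the 3 control libraries. The WT, ΔGS and ΔADAM libraries overlapped, so this level did not check which TYRO3 form each held.

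Levels were compared between genes in TPM, a unit that divides the counts by transcript length. MLX was highest, at 86.8 to 110 TPM with a median of 97.1 over the 12 libraries. MAX, the shared partner, followed at 44.5 to 67.7 TPM and lay below MLX in all 12 libraries. MYC ranged from 19.5 to 41.4 TPM and overlapped MNT, which ranged from 15.9 to 28.0 TPM, although MYC was the higher of the pair in 10 of 12 libraries. MGA followed at 6.48 to 15.8 TPM, without overlap with MNT. MGA, MXI1 (4.55 to 21.1 TPM), MXD4 (6.21 to 14.7 TPM) and MXD3 (5.55 to 12.4 TPM) overlapped each other. MXD1 was lowest of the genes that were detected, at 1.95 to 6.96 TPM, and its range overlapped that of MXD3.

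**Figure D1:**
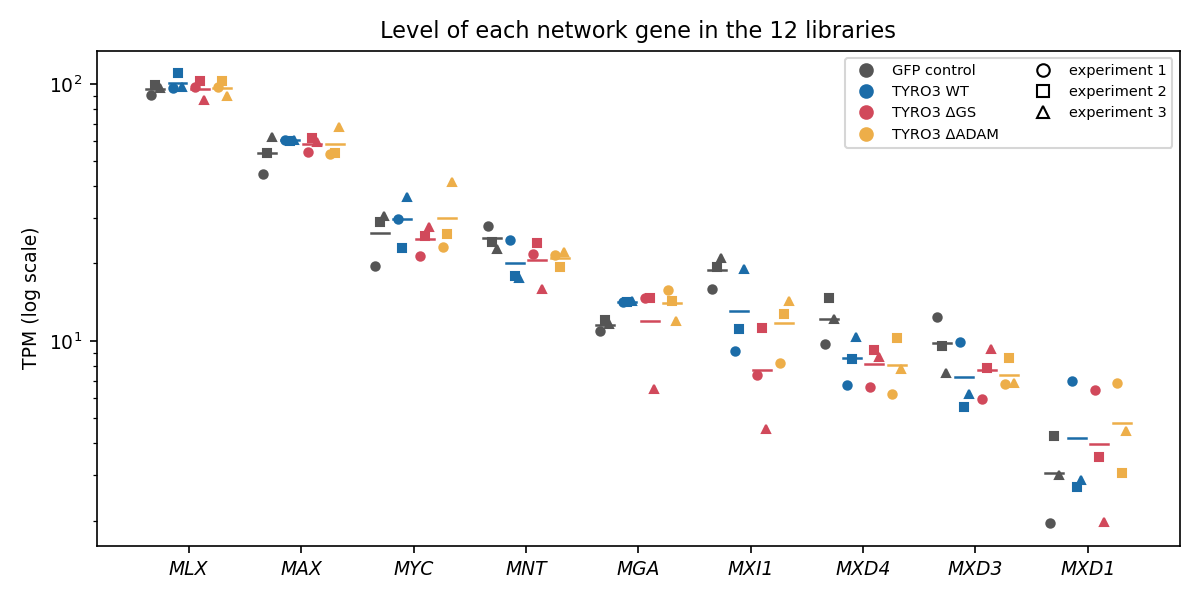
TPM (log scale) of 9 network genes in the 12 libraries, with 1 point per library, shapes for the experiments, colours for the groups and a bar at each group mean. MLX and MAX lie above all others, and the 2 low ΔGS points of MGA (6.48 TPM) and MXI1 (4.55 TPM) come from experiment 3.

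MYCN, the neuroblastoma relative of MYC on chromosome 2 (15940564 to 15947007), was listed at 0 counts in all 12 libraries. A count of 0 allows up to 3 counts. Over unscaled library totals this is 0.0806 CPM in the deepest library and 0.768 CPM in the shallowest. These limits cover counting error only.

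Each TYRO3 group was first set against the control within experiments, which asks whether transfected TYRO3 moved the network. The test was edgeR's quasi-likelihood test on all 15098 genes, with a term for each experiment and Benjamini-Hochberg adjustment, and a gene passed at an adjusted p of at most 0.05. Of the 9 tested members, 0 passed in WT, 0 in ΔGS and 1 in ΔADAM. Over all genes, 3.58%, 8.95% and 10.2% passed in the same 3 comparisons. At an unadjusted edgeR p under 0.05 the members numbered 2, 3 and 2, beside 3241, 4022 and 4136 of all 15098 genes. DESeq2 also passed 0, 0 and 1 members, beside 1390, 2022 and 2163 of all genes. With a fold change over 1.5 also asked, no member passed, against 2.35%, 4.69% and 5.19% of all genes. The members' median log2 fold change was 0.01, -0.07 and -0.04, and that of all genes lay within 0.01 of 0. With a batch term for experiment 1 in place of the term for each experiment only 6, 80 and 212 genes passed over all, and 0 members. Single libraries also moved the counts over all genes, which were 541, 1352 and 1537 with all libraries: with 1 library left out they ranged from 81 (without WT of experiment 2) to 1342 (without ΔGS of experiment 3) in WT, from 344 (without the control of experiment 1) to 1483 (without WT of experiment 1) in ΔGS, and from 215 (without ΔADAM of experiment 3) to 2702 (without ΔGS of experiment 3) in ΔADAM. The 3 comparisons share the control libraries and are not independent of each other.

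MXD4 was the member that passed. It is a MAX-binding repressor of the MXD family and lies on chromosome 4 (2247432 to 2262294, minus strand, GRCh38, GENCODE 29). It stood at 13.9, 23.2 and 16.5 CPM in the control libraries of experiments 1, 2 and 3, and at 9.65, 16.6 and 11.5 CPM in the ΔADAM libraries. The ΔADAM library was the lower in 3 of 3 experiments, although the ranges of the groups overlapped. MXD4 fell in ΔADAM by 0.51 on the log2 scale (SE 0.13, edgeR adjusted p = 0.035), which is under the 1.5-fold threshold. The WT libraries held 10.9, 14.3 and 14.1 CPM, with a log2 fold change of -0.43 (SE 0.13, edgeR adjusted p = 0.093). The ΔGS libraries held 10.3, 14.999 and 15.4 CPM, with -0.39 (SE 0.13, edgeR adjusted p = 0.087). Both of these groups lay below the control in 3 of 3 experiments as well, and neither passed. Without the ΔGS library of experiment 3, the one short of long transcripts, both passed (edgeR adjusted p = 0.047 in WT and 0.048 in ΔGS).

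The ΔADAM call for MXD4 did not hold under every setting. With a batch term for experiment 1 in place of the term for each experiment the edgeR adjusted p was 0.11, with neither term 0.30, with experiments 2 and 3 alone 0.23 and with limma 0.057. It was also lost on leaving out any of 6 of the 12 libraries: the control library of any experiment, ΔGS of experiment 1 and ΔADAM of experiments 1 and 3. The log2 fold change ranged from -0.62 to -0.40 over the libraries left out, and the adjusted p from 0.017 to 0.18.

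MAX, the obligate partner, lies on chromosome 14 (65006174 to 65102695, minus strand). It stood at 40.8, 51.9 and 58.4 CPM in the control libraries and 56.8, 55.9 and 60.3 in WT. The ΔGS libraries held 53.9, 56.3 and 70.8 CPM and the ΔADAM libraries 52.9, 56.1 and 71.1. Every TYRO3 library was above the control library of its own experiment. The log2 fold changes were 0.19, 0.25 and 0.24 in WT, ΔGS and ΔADAM (edgeR adjusted p = 0.26, 0.12 and 0.12), so MAX did not pass in any of them. The gene overlaps FNTB on the opposite strand, as MLX overlaps PSMC3IP, and the strand setting of the counting is not given in the sources used here.

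MYC, the activator of the network, lies on chromosome 8 (127735434 to 127741434). It stood at 27.6, 35.7 and 41.0 CPM in the control libraries and at 35.5, 28.6 and 43.9 CPM in WT. The ΔGS libraries held 25.4, 29.05 and 42.0 CPM and the ΔADAM libraries 28.6, 30.1 and 49.4 CPM. Experiment 3 gave the highest value in every group, and the groups overlapped. The log2 fold change was 0.03 in WT (95% interval -0.25 to 0.32), -0.15 in ΔGS (-0.43 to 0.13) and 0.01 in ΔADAM (-0.28 to 0.29), with edgeR adjusted p = 0.93, 0.50 and 0.99. A change within these intervals was not detectable here.

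MXI1, an MXD repressor on chromosome 10 (110207605 to 110287365), varied most. It stood at 8.42, 12.9 and 18.5 CPM in the control libraries and 8.18, 11.2 and 14.96 in WT. The ΔGS libraries held 8.07, 9.48 and 3.80 CPM and the ΔADAM libraries 6.20, 11.2 and 11.2. Each TYRO3 library lay below its control library, by as little as 0.04 on the log2 scale in WT of experiment 1. The log2 fold change was -0.23 in WT, -0.86 in ΔGS and -0.51 in ΔADAM (edgeR adjusted p = 0.74, 0.14 and 0.34). The ΔGS value rested largely on the library of experiment 3, the one short of long transcripts, and was -0.35 without it.

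MNT, the broadly expressed MAX-binding repressor on chromosome 17 (2384060 to 2401118, minus strand), stood at 61.0, 45.1 and 40.0 CPM in the control libraries and 46.0, 35.1 and 35.4 CPM in WT. The ΔGS libraries held 41.8, 39.9 and 39.0 CPM and the ΔADAM libraries 43.8, 35.5 and 45.5 CPM. The log2 fold changes were -0.31, -0.24 and -0.20 (edgeR adjusted p = 0.18, 0.23 and 0.32). The control library of experiment 1 was the highest of the 12, the other libraries lay between 35.1 and 46.0 CPM in all groups, and ΔADAM was above the control in experiment 3.

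MGA, the largest protein of the network, lies on chromosome 15 (41621224 to 41773081), 37637 bases beyond the end of TYRO3. It stood at 67.1, 74.3 and 83.2 CPM in the control libraries and 84.3, 82.6 and 89.4 in WT. The ΔGS libraries held 88.0, 81.6 and 54.0 CPM and the ΔADAM libraries 89.5, 79.1 and 78.2. The ΔGS library of experiment 3 was the lowest of the 12, and the log2 fold change in ΔGS turned from -0.04 to 0.18 without it. In WT and ΔADAM it was 0.17 and 0.11 (edgeR adjusted p = 0.56 and 0.69).

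MLX, MXD1 and MXD3 did not pass in any comparison. MLX held 120 to 137 CPM over the 12 libraries, and its log2 fold changes of 0.01, 0.01 and -0.04 had the narrowest intervals of the members (-0.14 to 0.16 in WT). MXD1, an MXD repressor tied to differentiation, was 8.15 CPM in the control library of experiment 1. It was 17.9, 14.2 and 15.8 CPM in the WT, ΔGS and ΔADAM libraries of that experiment. MXD1 did not split the libraries by group in experiments 2 and 3. Its log2 fold changes were 0.06, 0.10 and 0.19. MXD3, which is linked to proliferating cells, held 5.53 to 10.5 CPM, with log2 fold changes of -0.16, -0.07 and -0.32. It overlaps RAB24 on the same strand and PRELID1 on the other. MXD1 overlaps SNRNP27 on the same strand. The reads of MXD3 and MXD1 are therefore less certain.

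**Figure D2:**
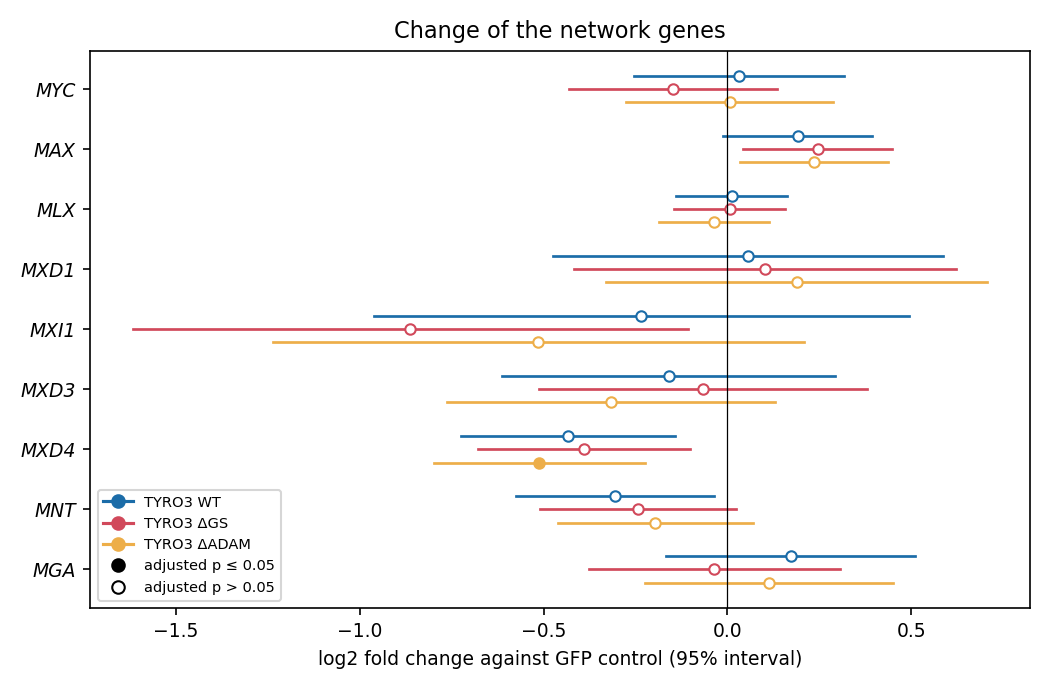
Log2 fold change of 9 network genes against the GFP control for each TYRO3 group, with 95% intervals and filled points at an adjusted p of at most 0.05. MXD4 in ΔADAM (-0.51) is the only filled point, and MYC and MLX lie near 0.

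**Figure D3:**
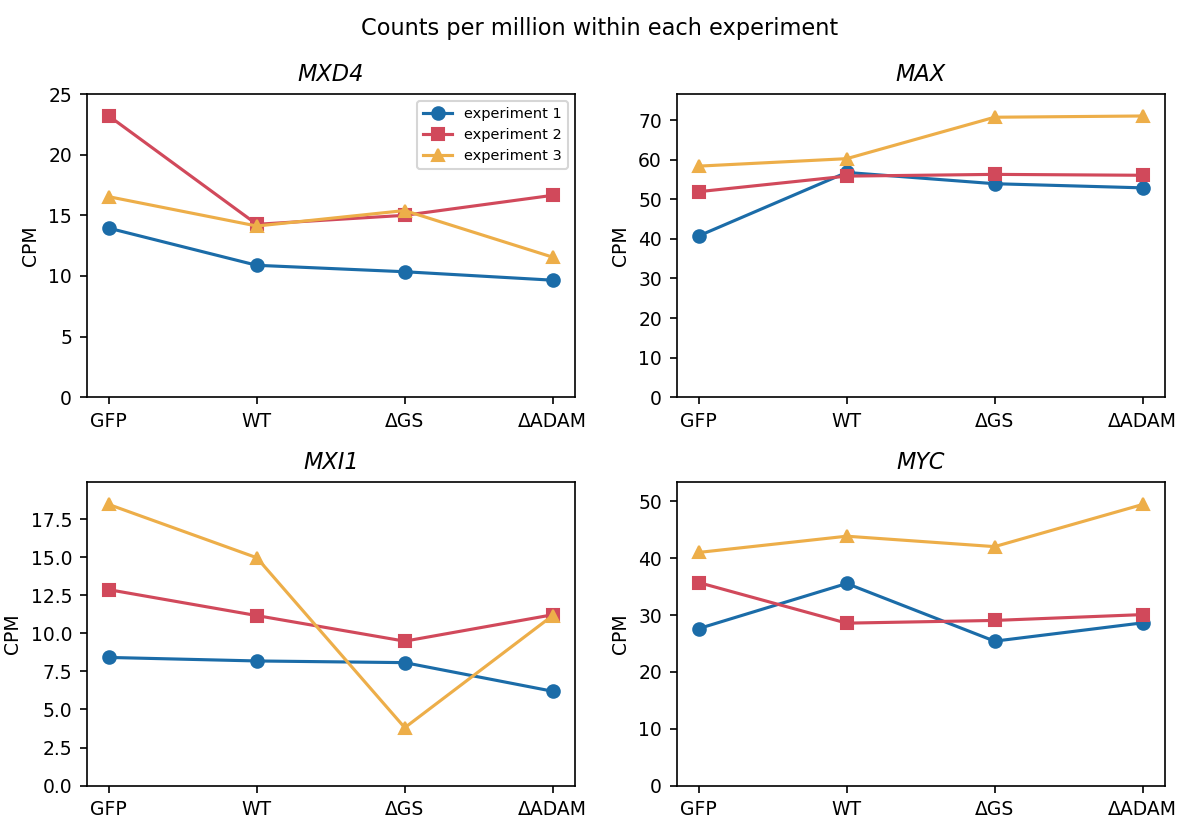
CPM of MXD4, MAX, MXI1 and MYC in the GFP, WT, ΔGS and ΔADAM libraries, with 1 line per experiment. MXD4 is highest in the control of each experiment, MAX lowest, MXI1 reaches 3.80 CPM in ΔGS of experiment 3, and MYC moves with the experiment.

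Direction was also counted within experiments. A member lay on the same side of the control in 3 of 3 experiments for 6 of 9 members in WT, 4 of 9 in ΔGS and 4 of 9 in ΔADAM, beside 50.4%, 45.7% and 51.8% of all genes tested.

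The mutants were then compared with WT and with each other, which asks whether cleavage of TYRO3 bears on the network. No member passed in WT against the mean of ΔGS and ΔADAM, or in ΔGS against ΔADAM. No gene passed at all, so that 0.0% of the 15098 genes passed in the first and 0.0% in the second, also with the fold change over 1.5 asked for (0.0% and 0.0%). At an unadjusted p under 0.05 edgeR found 237 and 216 genes and 0 members, and DESeq2 passed 5 and 1 genes and 0 members. MXI1 had the widest interval, at 0.45 on the log2 scale in WT against the mutants (95% interval -0.16 to 1.07), and the interval of MYC was -0.14 to 0.34. The interval of MXD4 was -0.23 to 0.26 in the first comparison and -0.16 to 0.40 in the second.

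The balance of activator and repressors was described as the TPM of MYC over the summed TPM of 6 repressors (MXD1, MXI1, MXD3, MXD4, MNT and MGA). The ratio was 0.247, 0.343 and 0.390 in the control libraries of experiments 1, 2 and 3. It was 0.417, 0.383 and 0.516 in WT, 0.340, 0.364 and 0.589 in ΔGS and 0.354, 0.382 and 0.612 in ΔADAM. Each TYRO3 library was above the control of its own experiment, while the groups overlapped between experiments. The lowest control ratio, 0.247, came from the shallowest library. The ΔGS ratio of 0.589 came from the library short of long transcripts. The summed level of the repressors was 78.3 to 84.2 TPM in the control libraries and 59.9 to 71.6 in WT. It was 46.9 to 70.4 TPM in ΔGS and 65.3 to 68.1 in ΔADAM. This ratio was a description of members already chosen and was not tested.

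The deposited values are per transcript, and 92 transcripts of the 10 genes were listed, 2 to 19 for each. Of these, 52 could be tested and 0 passed in any comparison with control by edgeR, beside 0.00765%, 0.00917% and 0.00612% of all transcripts in WT, ΔGS and ΔADAM. At an unadjusted p under 0.05 they numbered 2, 4 and 3 of the 52. The share of all transcripts at that threshold is not given here, so these counts stand without a background. MAX-204 was the leading transcript of MAX, with 22.1 to 46.4 TPM, and MLX-203 that of MLX, with 33.1 to 71.6 TPM. MYC was carried by MYC-205 (5.73 to 16.2 TPM) and MYC-202 (7.09 to 13.8 TPM), while MXI1 was spread over several.

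MXD4-201, the leading transcript of MXD4, held 29.2%, 50.2% and 40.3% of the gene's TPM in the control libraries. It held 44.7% to 56.5% in the 9 TYRO3 libraries, all of them above the control libraries of experiments 1 and 3. The mean share was 39.9% in control and 51.7% with TYRO3 (exact permutation test, two-sided, n = 3 and 9, p = 0.014), and over the 9 members tested the adjusted p was 0.12. No member passed, and the smallest p that 9 against 3 libraries allow is 0.0045. Each TYRO3 library was above the control of its own experiment for MXD4-201, and for MLX-203 too. When the control label was moved only within experiments, an alternative added after seeing the data, the exact permutation test gave p = 0.016 for both, the smallest p its 64 arrangements allow, and an adjusted p of 0.070, so that no member passed there either. The 3 TYRO3 libraries of an experiment share 1 control library. Both differences leaned on the control library of experiment 1, the shallowest. Without it the difference fell from 11.8 to 6.38 percentage points for MXD4-201 (exact permutation test, p = 0.073, adjusted p = 0.49). For MLX-203 the difference fell from 10.5 to 1.81 percentage points (exact permutation test, p = 0.67). The share of MAX-204 was 52.5% and 61.2% in the same order (exact permutation test, adjusted p = 0.19). The splitting of reads among transcripts of 1 gene is an estimate.

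Partners of the network were counted from lists chosen by name, and named genes were the 4 of each list with the smallest unadjusted p. The counts of each list are to be read beside the 3.58%, 8.95% and 10.2% of all genes that passed in WT, ΔGS and ΔADAM. MLXIP, the glucose-sensing partner of MLX, stood at 76.3, 77.7 and 71.4 CPM in the control libraries and at 51.6 to 64.1 CPM in the 9 TYRO3 libraries, without overlap. It fell in all 3 comparisons, by 0.32, 0.49 and 0.40 on the log2 scale in WT, ΔGS and ΔADAM (edgeR adjusted p = 0.047, 0.0069 and 0.013). It was 1 of 4 further network factors, and MYCL, MLXIPL and ZBTB17 did not pass. Of 13 SIN3-HDAC corepressor genes, 0 passed in WT and ΔGS, and RBBP7 and HDAC1 (15.4% of the list) fell in ΔADAM, by 0.33 and 0.28 on the log2 scale (edgeR adjusted p = 0.040 and 0.041). SAP30 and RBBP4 did not pass. None of the 12 MYC coactivators passed in any of the 3 comparisons, KAT5, SMARCB1, RUVBL1 and WDR5 included, and none of the 11 PRC1.6 genes, CBX3, CBX1, PCGF6 and WDR5 included. Of 12 genes of MYC turnover, GSK3B, the kinase that marks MYC for destruction, fell in ΔGS by 0.36 on the log2 scale (edgeR adjusted p = 0.027). FBXW7, USP36 and SKP2 did not pass.

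Of 42 tested genes that MYC activates, 0 rose and 1 fell in WT, 2 rose and 5 fell in ΔGS, and 0 rose and 3 fell in ΔADAM. These are 2.38%, 16.7% and 7.14% of the list, beside 3.58%, 8.95% and 10.2% of all genes. With all libraries ΔGS thus lay above the share of all genes, and WT and ΔADAM below it. The ΔGS share depended on the ΔGS library of experiment 3. Without that library LDHA alone of these ΔGS calls remained, while 1136 of 15325 genes passed in ΔGS. The list had median log2 fold changes of -0.038, -0.0027 and -0.064, and the medians of all genes tested were -0.0025, 0.0066 and -0.0021. Among 20 nucleolar and ribosome genes, UBTF and NOP58 rose in ΔGS, by 0.34 and 0.36 on the log2 scale (edgeR adjusted p = 0.029 and 0.032), and BOP1 and RRP12 did not pass. Both calls were lost without the ΔGS library of experiment 3, as were those of PAICS, TFRC, HK2, ID2 and TXNIP in ΔGS. Among 14 metabolic genes, LDHA, a glycolytic enzyme, stood at 1398, 1282 and 1328 CPM in the control libraries and at 879 to 1166 CPM in the 9 TYRO3 libraries. It fell in all 3 comparisons, by 0.43, 0.37 and 0.46 on the log2 scale (edgeR adjusted p = 0.028, 0.028 and 0.013). TFRC, the transferrin receptor, fell by 0.61 in ΔGS and 0.65 in ΔADAM, and PAICS, a purine enzyme, by 0.26 and 0.29. HK2, a hexokinase, fell by 0.33 in ΔGS. The median of the metabolic list was -0.14, -0.14 and -0.16. Of 8 tested cell cycle genes, ID2 fell in ΔGS by 0.89 on the log2 scale (edgeR adjusted p = 0.043), and CDC25A, CKS2 and TERT did not pass.

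Of 8 genes that MYC represses, 0 passed in WT, 1 rose and 1 fell in ΔGS, and 2 rose and 1 fell in ΔADAM. In either direction these are 25.0% of the list in ΔGS and 37.5% in ΔADAM, beside 8.95% and 10.2% of all genes. NDRG1, a stress-responsive gene, rose in ΔGS and ΔADAM, with log2 fold changes of 0.72 and 0.66 (edgeR adjusted p = 0.017 and 0.022). NDRG2 fell in the same groups, by 0.50 and 0.50. CDKN2B, an inhibitor of cyclin-dependent kinases, rose in ΔADAM by 0.45, and CDKN1A did not pass, at 0.66, 0.80 and 0.83 in WT, ΔGS and ΔADAM. Of 4 MLX targets, TXNIP stood at 19.2, 13.9 and 11.6 CPM in the control libraries, 39.4, 13.9 and 17.1 in WT, 36.9, 19.4 and 27.0 in ΔGS and 41.9, 18.6 and 35.5 in ΔADAM. It rose in ΔGS and ΔADAM, by 0.82 and 1.01 on the log2 scale (edgeR adjusted p = 0.041 and 0.019), and KLF10 rose in ΔADAM by 0.78. ARRDC4 did not pass, at 0.61, 0.71 and 0.92. HK2, the fourth of the list, fell in ΔGS, so that 1 of the 4 rose and 1 fell there, and 2 rose in ΔADAM.

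These calls on partners and targets depended on the fit and on single libraries. Of the 25 passing values over the 3 comparisons, 25 passed with DESeq2, 7 with limma, 1 (MLXIP in ΔGS) with a batch term for experiment 1 and 0 with experiments 2 and 3 alone, and all 25 kept their direction in these 4 alternatives. With 1 library left out and the term for each experiment kept, 1 to 24 of the 25 passed: 1 (MLXIP in ΔGS) without the control of experiment 1, 3 without ΔADAM of experiment 1, 5 without the control of experiment 3, 10 without ΔGS of experiment 2 or ΔADAM of experiment 3, 12 without ΔGS of experiment 1 or the control of experiment 2, 13 without WT of experiment 2 and 18 to 24 without any of the other 4 libraries. The direction was kept in each. The 25 values leave out the cell type markers. Of 8 melanocyte markers, MITF and DCT fell in ΔGS and in ΔADAM, and SOX10 fell in ΔADAM. These are 25.0% of the list in ΔGS and 37.5% in ΔADAM, beside 8.95% and 10.2% of all genes. LUM, 1 of 4 fibroblast markers tested, fell in all 3 comparisons, COL1A1, DCN and PDGFRA did not pass, and neither did PMEL, KRT10, VWF or PECAM1. The part of these markers in the results on the network was not tested.

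**Figure D4:**
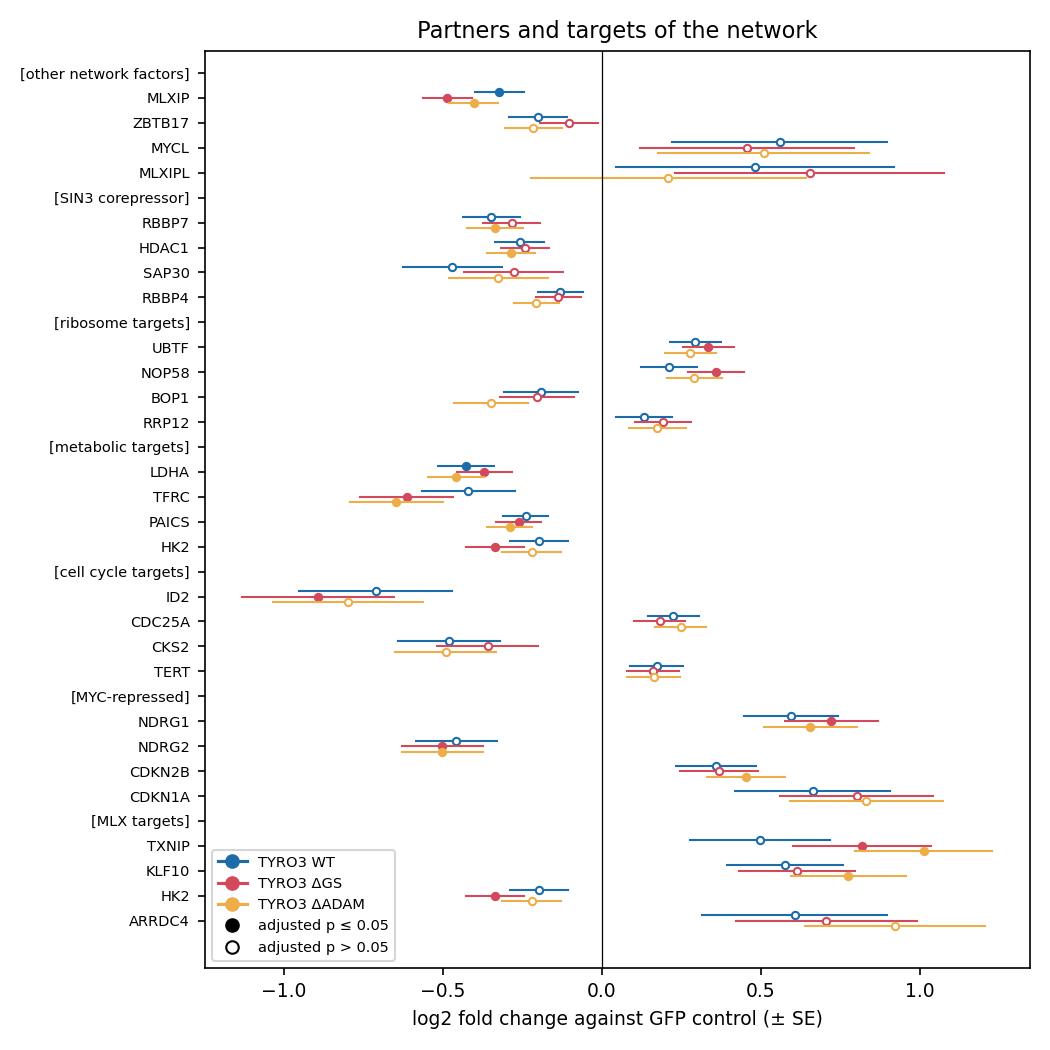
Log2 fold change (± SE) against the GFP control of the named partners and targets, grouped by list, with filled points at an adjusted p of at most 0.05. MLXIP and LDHA are filled in all 3 groups on the left, and TXNIP reaches 1.01 in ΔADAM on the right.

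The genes whose pattern was most like that of MYC were UGDH (r = 0.88), ETV5 (0.88), AGPAT5 (0.85), PPIAP53 (0.84) and TULP4 (0.83). The measure was Pearson's r of log2 CPM over the 12 libraries after centring on each experiment, chosen as the highest among 15097 other genes, and it is a description. PPIAP53 is a pseudogene of at most 0.714 CPM that can share reads with its parent gene.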

How the data were processed

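Reads passed FastQC 0.11.9 and trimming by Trimmomatic 0.33 and PRINSEQ in the authors' hands, and kallisto 0.46.0 assigned them to Ensembl 96 transcripts. The deposited values are estimated counts and TPM per transcript; the authors' later batch correction and library size normalization are not in them. The 12 libraries were grouped by their labels. Of 188753 transcripts, 169797 matched GENCODE 29 by identifier and held 97.4% to 97.5% of each library's counts.

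Estimated counts were summed per gene, rounded, filtered by filterByExpr (minimum count 10, minimum total 15) and tested with edgeR 4.0.16 in R 4.3.3 (TMM, 4 groups, a term for each experiment). The alternatives used DESeq2 1.42.0 and limma 3.58.1 (log2(TPM + 1)). Labels give an experiment number, and the deviations of same-numbered libraries from their group means correlated in all 18 pairs (r = 0.14 to 0.66), so the numbers were taken as pairing. Whether libraries of 1 group came from separate cultures is not stated beyond the experiment number, so p-values measure the spread between these libraries. On simulated data for WT against control (15098 genes, 200 changed), 35.0% of 1.5-fold and 74.5% of 2-fold changes were recovered.

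The members and lists were chosen with earlier results of these data known. Named genes were all members, TYRO3, the 4 genes per list with the smallest unadjusted p and the 5 most like MYC. Intervals cover 95%, and counting limits used 3 counts.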

Additional observations from a re-analysis of the deposited data

How the results depend on the processing

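The count of members past the test was the same in most alternatives for the 5 comparisons, and the exceptions follow. In ΔADAM against control the 1 call (MXD4) became 0 with limma, without the replicate block and with a batch term for experiment 1, without block or batch term, and with experiments 2 and 3 alone, and it ranged from 0 to 2 with 1 library left out. In ΔGS against control limma gave 1 (MXI1), and leaving out 1 library gave 0 to 1. In WT against control leaving out 1 library gave 0 to 1. Without ΔGS of experiment 3, MXD4 passed in each of the 3 comparisons and MXI1 in ΔADAM. The causes were not tested. The counts of transcripts past the test and of leading-transcript shares past the test stayed at 0 in every alternative run, with the replicate block in the permutation of shares included. Among the values of single genes, 361 lost and 95 gained the call with the same direction, and 16 medians of lists moved by more than their spread between experiments. Over all genes, with a batch term for experiment 1 in place of the replicate block 6, 80 and 212 genes passed in WT, ΔGS and ΔADAM, and with neither 3, 4 and 5, against 541, 1352 and 1537 with the block. DESeq2 passed 1390, 2022 and 2163 genes, limma 282, 590 and 687, only the groups compared 30, 534 and 1188, experiments 2 and 3 alone 47, 193 and 224, and no filter 914 in WT. Leaving out 1 library gave 81 to 1342, 344 to 1483 and 215 to 2702 genes. Of the 25 calls on partners and targets, 0 to 1 remained without the block and 1 to 24 with the block and 1 library left out. The shallow control library of experiment 1 limits the precision of that experiment. None of the log2 fold changes that changed sign had passed the test; they are given here on the log2 scale against control unless another comparison is named.

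With experiments 2 and 3 alone, the sign turned for MYC -0.11, MXD1 -0.31, PDGFRA 0.00609 (WT), and for MXD1 -0.0299, MXD3 0.14, CBX3 0.00292, KRT10 0.0497, PECAM1 0.0726 (ΔGS), and for KRT10 0.0889, PDGFRA 0.0869 (ΔADAM), and for MYC -0.0551, MXD3 -0.21, MXD4 -0.0348 (WT against the mutants), and for MAX -0.012 (ΔGS against ΔADAM). With the shallowest library and the one short of long transcripts left out (an alternative chosen after seeing the data), the sign turned for MYC -0.00901, MXD1 -0.16 (WT), and for MXD1 -0.0638, MGA 0.11, PDGFRA 0.22, PECAM1 0.42 (ΔGS), and for MYC -0.0238, MXD1 -0.0197, KRT10 0.0417 (ΔADAM), and for MAX -0.0378, MXI1 0.12, MGA 0.0511 (ΔGS against ΔADAM). With limma on log2(TPM + 1), the sign turned for VWF 0.0435 (WT), and for PECAM1 0.0862, SKP2 -0.0806, VWF 0.0716 (ΔGS), and for MLX 0.0187, PDGFRA 0.0601, VWF 0.11 (ΔADAM), and for MAX 0.0521, MXD3 -0.0812 (WT against the mutants), and for MLX -0.0154 (ΔGS against ΔADAM). With the batch term in place of the replicate block, the sign turned for PECAM1 0.0314 (ΔGS), and for PECAM1 -0.0191 (ΔADAM). With DESeq2, the sign turned for PECAM1 -0.00778 (ΔADAM), and for MAX -0.000844 (ΔGS against ΔADAM). With neither replicate block nor batch term, the sign turned for PECAM1 -0.0588 (ΔADAM). With only the groups compared, the sign turned for PECAM1 -0.0409 (ΔADAM). With RLE size factors, the sign turned for MAX -0.000704 (ΔGS against ΔADAM).

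Leaving out 1 library at a time, the values in WT crossed 0 for MYC -0.11 to 0.19, MXD1 -0.19 to 0.27, MXI1 -0.45 to 0.0855, MLX -0.0268 to 0.0463, KRT10 -0.30 to 0.00338, PDGFRA -0.61 to 0.0941, PECAM1 -0.27 to 0.26. Leaving out 1 library at a time, the values in ΔGS crossed 0 for MYC -0.24 to 0.0158, MXD1 -0.11 to 0.33, MXD3 -0.27 to 0.0725, MGA -0.16 to 0.18, MLX -0.0309 to 0.0424, KRT10 -0.32 to 0.0256, PDGFRA -0.43 to 0.0344, PECAM1 -0.52 to 0.24. Leaving out 1 library at a time, the values in ΔADAM crossed 0 for MYC -0.0926 to 0.17, MXD1 -0.0223 to 0.40, KRT10 -0.24 to 0.0655, PECAM1 -0.38 to 0.16. Leaving out 1 library at a time, the values in WT against the mutants crossed 0 for TYRO3 -0.0729 to 0.19, MYC -0.0561 to 0.21, MAX -0.14 to 0.0348, MXD1 -0.38 to 0.0714, MXD3 -0.14 to 0.15, MXD4 -0.0418 to 0.12, MLX -0.0107 to 0.047. Leaving out 1 library at a time, the values in ΔGS against ΔADAM crossed 0 for MAX -0.0247 to 0.0526, MXD1 -0.26 to 0.0781, MXI1 -0.73 to 0.13, MNT -0.12 to 0.10, MGA -0.29 to 0.0649.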
